A study of Mus musculus with 12 samples.

Results

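The miR-15, miR-16 and miR-195 family was examined in islets of the pancreas, small groups of endocrine cells among which beta cells make insulin. The family was taken as the panel assays named miR-15a, miR-15b, miR-16, miR-195, miR-322, miR-497 or miR-503 once species prefix and arm suffix are removed, without assays whose name ends in # (the starred, usually minor, strand of a hairpin). This gave 7 assays, 1 for each name, among 750 miRNA spots and 846 spots in all. The islets came from male C57BL/6 offspring, 2 to 3 months old, of mothers on a low-protein diet during pregnancy (LP0.5, 6 samples) or on a control diet (Control, 6 samples), and were left to recover overnight in culture before RNA was taken. Both groups shared strain, sex, age and islet preparation and carried no transgene or deletion, as far as the labels say. The labels do not say whether a sample is 1 animal or a pool, nor whether littermates entered 1 group. Hand-picked islets hold several endocrine cell types besides beta cells and some vessel, blood and connective tissue cells, so in such bulk RNA fewer cells of a type and less RNA per cell cannot be told apart.

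MicroRNAs (miRNAs) are short RNAs that guide silencing complexes to messenger RNAs, mainly through the seed, bases 2 to 8 of the mature strand. Members of this family share the start of their seed and restrain cell growth: known targets include the survival gene Bcl2 and the cell cycle genes Ccnd1, Ccne1, Cdk6 and Wee1. The miR-15a and miR-16 pair is known as a tumour suppressor lost in human chronic lymphocytic leukaemia, and in mouse heart miR-195 takes part in the exit of muscle cells from the cell cycle after birth. In regenerating mouse pancreas miR-15a, miR-15b, miR-16 and miR-195 are known to act on Neurog3, the factor that starts endocrine differentiation.

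The mature strands are shown because they define the family and its inner split. They are mouse RefSeq sequences of build GRCm38.p6, written 5′ to 3′ with the seed in capitals; all 7 names were matched. The panel names carry human prefixes for miR-15a, miR-15b, miR-16 and miR-195, and the deposited tables hold no probe sequence, so the letters show the mouse miRNA of that name and not the assay.
miR-15a: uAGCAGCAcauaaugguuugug
miR-15b: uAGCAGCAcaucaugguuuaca
miR-16: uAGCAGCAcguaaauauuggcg
miR-195: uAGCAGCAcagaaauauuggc
miR-497: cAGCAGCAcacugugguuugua
miR-322: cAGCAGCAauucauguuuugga
miR-503: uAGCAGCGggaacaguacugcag
The seed AGCAGCA was shared by 6 members, while miR-503 had AGCAGCG, a seed that no other mature name in the table carried. Among 1679 mature mouse names in the table, 10 carried AGCAGCA, and the other 4 (miR-195b, miR-6342, miR-6353 and miR-6419) were not on the panel. Beyond the seed the members differed. MiR-16 and miR-195 were the closest pair, with 19 of 21 aligned bases identical, and miR-15a and miR-15b had 18 of 22. MiR-503 had 10 to 12 identical bases with any other member over the 21 or 22 compared.

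The members come from 4 pairs of neighbouring genes. Mir15a lies at chr14:61632075-61632096 (minus strand, coordinates of the mature strand in GRCm38.p6), with the mature start of Mir16-1 139 bases downstream, inside the long noncoding RNA gene Dleu2. Mir15b lies at chr3:69009775-69009796 (plus strand), with Mir16-2 143 bases downstream, inside Smc4, which encodes a condensin subunit that compacts chromosomes. Mir16-1 and Mir16-2 give the same mature miR-16, so its assay reads both genes together. Mir497 lies at chr11:70234730-70234751 (plus strand) and the mature start of Mir195a 332 bases downstream. Mir322 lies at chrX:53054306-53054327 (minus strand), and Mir503 begins 278 bases downstream in the same orientation. This X-linked pair is known from mouse muscle precursors, where it promotes exit from the cell cycle by acting on Cdc25a.

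TaqMan real-time PCR was used to measure small RNA. For each spot the authors' deposited table holds a single linear ratio of LP0.5 over Control, going by its column heading, so that a value above 1 stands for a higher level in LP0.5 islets. The direction has no other support in the files, and miR-199a-3p, which the study is known for naming as raised, stood at 0.422 in the authors' deposited table. For this reason the text says on which side of 1 a ratio was listed. Values per sample and errors do not accompany the ratios, which leaves them without replicate check, interval or test. The levels behind the ratios were not analysed here, and the order of the members by abundance is not given.

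The 5 members from autosomal genes were listed near 1 and the assays named for the 2 X-linked members well below it. In the authors' deposited table miR-503 was listed at 0.329 and miR-322 at 0.414. For the assay that carries the human name of miR-322, miR-424, the authors' deposited table gave 1.23. Which strand the miR-322 and miR-424 assays read is not known. With the miR-424 assay taken for miR-322, 1 member in place of 2 was at least 1.5-fold from 1. By size of departure the miR-503 and miR-322 assays are 3.04-fold and 2.42-fold below 1, and 8.13% and 9.36% of the 566 miRNA spots with a ratio were listed lower. No other member was as far as 1.5-fold from 1.

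Of the miR-15a and miR-16-1 gene pair, which is best known for lowering Bcl2, the authors' deposited table gave miR-15a at 1.03 and miR-16 at 0.903. MiR-15b, whose gene sits beside the second miR-16 gene, was the highest member, at 1.16 in the authors' deposited table. The other gene pair, known in mouse muscle stem cells for holding them out of the cell cycle, had miR-195 at 0.823 and miR-497 at 1.12 in the authors' deposited table. These 5 values lie on both sides of 1 and span 1.41-fold from the lowest to the highest, with a median of 1.03. Relative to U6, the reference of the table, members of 1 gene pair were listed on opposite sides of 1 for miR-195 and miR-497 (1.36-fold apart), for miR-15a and miR-16 (1.14-fold) and for miR-15b and miR-16 (1.28-fold).

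**Figure D1:**
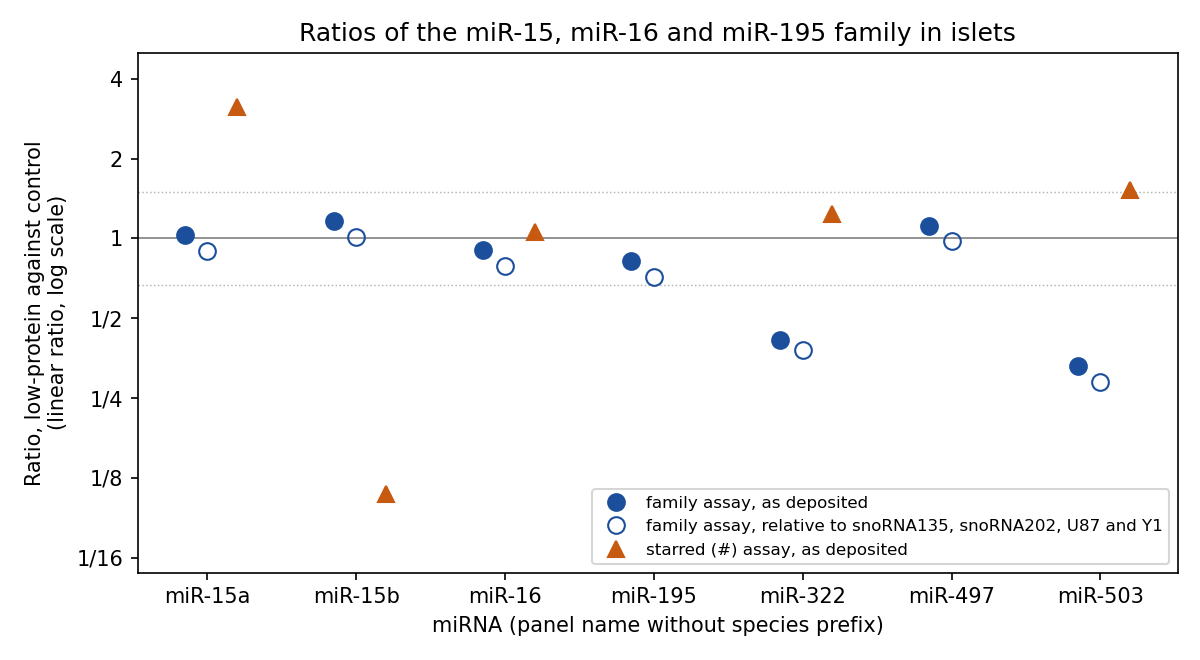
Ratio of low-protein against control for each family member on a log scale: filled circles as deposited, open circles relative to the other small RNA controls, triangles for the starred assay of the same hairpin where the panel has one. MiR-322 and miR-503 lie below the dotted line at 1.5-fold under 1, the other 5 circles lie between the dotted lines, and the starred assays lie above 1 except miR-15b#.

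Similarity of sequence and closeness of ratio can be set side by side, as a description, for the closest pairs. MiR-16 and miR-195, the most alike in sequence, were 1.10-fold apart in ratio, and miR-15a and miR-15b 1.13-fold. The pair closest in ratio was a less alike one, miR-15b and miR-497, 1.04-fold apart with 16 of 22 aligned bases identical. No such pairing is given for miR-322, since the strand that its assay reads is not known.

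Against the whole panel, the family as listed was not far from the middle. Its median ratio was 0.903 with 3 members above 1 and 4 below, beside a median of 1.01 over all 528 miRNA names with a ratio, of which 266 were above 1 and 262 below. A departure of at least 1.5-fold was seen for 2 of 7 members, beside 35.3% of all miRNA spots with a ratio. Both were below 1, where 16.8% of the spots were as far. Both were also at least 2-fold from 1, beside 24.2% of spots either way and 11.8% below. A count of 2 in 7 is thus near the either-way share of the panel at both folds and is not a result about the family. The quartiles of the panel were 0.777 and 1.28, and the 5 autosomal members lay between them.

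**Figure D2:**
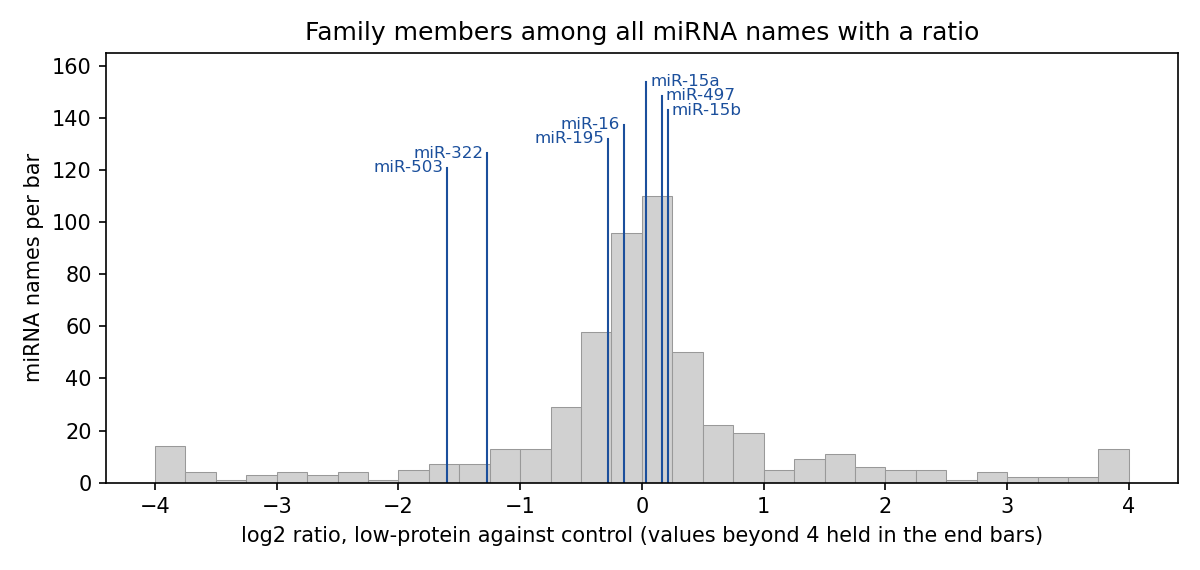
Number of miRNA names per bar of 0.25 on the log2 scale of the ratio, with a line at each family member; names beyond 16-fold (24 of 528) are held in the end bars. The lines of miR-15a, miR-15b, miR-16, miR-195 and miR-497 stand in and beside the tallest bars, and those of miR-322 and miR-503 stand in the thin part left of -1.

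For scale, 38 miRNA names on the panel had ratios from a pair of assays, and the assays of a pair differed by 1.31-fold at the median and by 5.98-fold at the 95th percentile. All 7 members lie nearer to 1 than that upper value, and the 5 autosomal members lie nearer to 1 than the median difference. Distance of 1 assay from 1 and distance between the assays of a pair are unlike measures, so this is a rough scale only. The panel's assays fall into an A and a B set, each with control spots of its own. Some of the pairs, such as those of miR-143 and miR-217, have 1 assay in each set. Repeated spots of 1 control assay were mostly closer, with a median SD of 0.15 on the log2 scale (8 spots per control and assay set), or 1.11-fold. The SD ran from 0.03 for snoRNA202 to 1.05 for U87, both in the B set. There the U87 spots ran from 0.133 to 1.13, so the lowest was listed below the miR-322 assay of the same set.

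The ratios are relative to U6, a spliceosomal RNA, since the U6 spots of each set of assays averaged 0 on the log2 scale. Which side of 1 a near member takes depends on that choice. Relative to the snoRNA135, snoRNA202, U87 and Y1 controls, small RNAs of other kinds, miR-15a stood at 0.895 and miR-497 at 0.976, both now below 1. MiR-15b was then the only member above 1, at 1.01, and the family had 1 member above 1 and 6 below with a median of 0.787. MiR-322 stood at 0.381 and miR-503 at 0.287 on this scale. The shift was 0.20 on the log2 scale for the A set of assays, which holds 6 members, and 0.12 for the B set, which holds miR-322.

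The X-linked genes were read by several assays with unlike ratios. The hairpins of Mir322 and Mir503 are shown because each holds both a family strand and a starred strand, the first and second runs of capitals; they are RefSeq hairpins of GRCm38.p6, at chrX:53054255-53054349 and chrX:53053984-53054054, both on the minus strand.
Mir322: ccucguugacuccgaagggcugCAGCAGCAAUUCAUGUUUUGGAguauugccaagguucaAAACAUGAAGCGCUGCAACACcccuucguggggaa
Mir503: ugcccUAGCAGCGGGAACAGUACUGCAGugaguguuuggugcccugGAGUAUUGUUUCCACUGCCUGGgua
The assay named miR-322 had 0.414 in the authors' deposited table, against 1.24 for the assay named miR-322#. MiR-503 had 0.329 in the authors' deposited table, against 1.52 for miR-503#. In both hairpins the assay named without # was thus below 1 and the one with # above it, 3.00-fold and 4.60-fold apart.

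A further assay carries the name miR-424, which is the name of the human ortholog of miR-322. On the log2 scale the miR-322 assay was at -1.27 and the miR-424 assay at 0.30, which is a ratio of 1.23 in the authors' deposited table. Neither deposited table says which strand of the Mir322 hairpin the assays named miR-322 (number 001059), miR-322# (002506) and miR-424 (001076) read, so the low value of the miR-322 assay cannot be assigned to the strand that carries the AGCAGCA seed. With the miR-424 assay taken for miR-322, the family median was 1.03.

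Downstream of Mir322 and Mir503 on the same strand lie Mir351, 989 bases from the start of miR-322, Mir542 at 4853 bases and Mir450b at 6262 bases, which are known to be transcribed with them as 1 cluster in mouse. The panel holds 9 assays of this cluster besides the family, of which 7 had a ratio, 3 above 1 and 4 below, with a median of 0.868. In the authors' deposited table miR-542-3p was listed at 1.08 and miR-542-5p at 0.715. The pair of miR-351 assays fell on both sides of 1, at 1.65 (mouse name) and 0.735 (rat name) in the authors' deposited table. So did the assays named miR-450a and miR-450, listed at 2.67 (human name) and 0.638 (rat name) in the authors' deposited table, while miR-450b-3p was listed there at 0.868. None of the 7 was listed as low as miR-322 or miR-503, and no uniform direction was seen along the cluster.

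**Figure D3:**
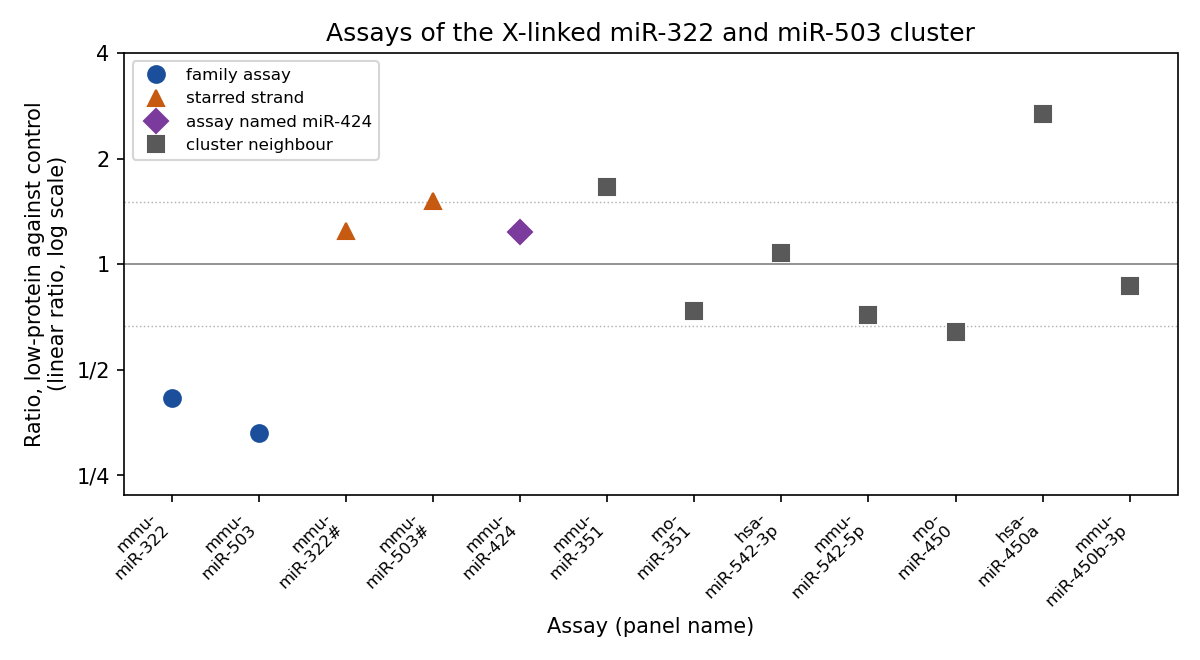
Ratio of low-protein against control (log scale) for each assay of the X-linked cluster with a ratio: circles for the family assays miR-322 and miR-503, triangles for their starred assays, a diamond for the assay named miR-424 and squares for neighbouring miRNAs. The circles, at 0.414 and 0.329, lie below all other points, which run from 0.638 to 2.67.

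Starred assays were also listed for the autosomal hairpins of miR-15a, miR-15b and miR-16. The authors' deposited table listed miR-15a at 1.03, against 3.12 for miR-15a#. It listed miR-15b at 1.16, against 0.108 for miR-15b#, and miR-16 at 0.903, against 1.05 for miR-16# (each from the authors' deposited table). The assays of 1 hairpin therefore differed by 10.7-fold for miR-15b, 3.04-fold for miR-15a and 1.17-fold for miR-16. The value of miR-15a# lies within the 2.59 to 3.37 listed in its set for ath-miR159a, a plant miRNA absent from mice. Whether miR-15a# was detected was not tested. Across 73 hairpin names with a starred and an unstarred ratio on the panel the median difference was 1.47-fold and the 75th percentile 2.66-fold, and 3 hairpins lay further apart than miR-15b. All 5 starred assays of the family are in the B set and 6 of the 7 family assays in the A set, so strand and assay set cannot be told apart. The miR-322 and miR-322# assays are both in the B set, but the strand each reads is not known.

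The hairpin of Mir15b had the largest difference between assays in the family. It reads as follows (chr3:69009772-69009835, plus strand, RefSeq GRCm38.p6, capitals mark miR-15b and then its starred strand).
Mir15b: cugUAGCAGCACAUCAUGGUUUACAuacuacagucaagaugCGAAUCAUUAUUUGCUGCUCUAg
The starred strand of miR-15a is shown beside it, since the 2 starred assays were listed farthest apart, with bases 2 to 8 in capitals.
miR-15a#: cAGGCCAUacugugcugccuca
miR-15b#: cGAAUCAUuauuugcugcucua

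MiR-103 and miR-107, which dampen insulin signalling in mouse liver and fat, carry the same run AGCAGC 1 base earlier, at their first base. Among the mature mouse names, they are the only others found on the panel by name that hold it within bases 1 to 8. Sequences of other species were not searched.
miR-103: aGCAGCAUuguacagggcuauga
miR-107: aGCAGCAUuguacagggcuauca
The authors' deposited table gave 1.05 for miR-103 and 1.18 for miR-107, the first within the range of the autosomal members and the other above their highest value of 1.16. Relative to the other small RNA controls miR-103 stood at -0.12 and miR-107 at 0.04 on the log2 scale, so miR-103 too changed side.

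Markers of other cells are given beside these values because the preparation can hold other cells and miR-16 is abundant in red blood cells. Of the 6 blood cell assays 4 were above 1 and 2 below, from 0.305 for miR-142-5p to 1.78 for miR-150, and the red cell miR-451 was listed at 0.620 (all in the authors' deposited table). The 7 fibroblast and stellate cell assays ran from 0.190 to 2.66 in the authors' deposited table, with 4 above 1 and 3 below. The 4 acinar assays ran from 0.726 to 1.83, and the endothelial miR-126 stood at 0.975 in that table. For the islet miR-375 and miR-7 the authors' deposited table gave 1.17 and 0.918. Summed marker levels per group need values per sample and were not analysed here, and the part of these cells in the family's ratios was not tested.

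All 7 members had a ratio, as had 75.5% of the 750 miRNA spots. A listed ratio does not show that a miRNA was detected: ath-miR159a, a plant miRNA absent from mice, had a ratio at all 8 spots of the B set, from 2.59 to 3.37 in the authors' deposited table. In the A set it had a ratio at 2 of 8 spots, 0.139 and 1.96 in the authors' deposited table. The lower of these lies below miR-503, an A set assay listed at 0.329 in that table. The miR-322 assay and all 5 starred assays of the family are in the B set, and the other 6 family assays are in the A set. The part of this background in the ratios of either set was not tested.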

How the data were processed

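Real-time PCR ratios of LP0.5 over Control were deposited by the authors on a linear scale, 1 per spot, per the file headers. A second table gives the name and assay number of every spot, plus 12 per-sample columns. Their names match no sample label, so these columns entered no step. The planned limma test per miRNA, which needs them, was therefore not run. Limma is listed in the submitters' processing notes without version or role; averaging, reference, detection limit and genome build: not given in the sources used here.

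Tables were joined on the spot code. The A or B set was taken from the block, since all control spots carry a B. Ratios were converted to log2. No filter was applied. Re-referencing was tested on simulated data. Sequences, seeds and gene order come from RefSeq tables of GRCm38.p6. Every family assay was named, with starred strands, seed relatives, cluster neighbours and markers as context; members and lists were chosen with earlier results of these data known. Python 3.11.15, numpy 2.4.6, pandas 2.3.3 and matplotlib 3.10.9 were used.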

Additional observations from a re-analysis of the deposited data

Results flagged for a closer look

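A signal appeared outside the family's own measurement: the plant miRNA ath-miR159a, a negative control, had a median ratio of 3.01 over the 8 spots of the B set, the set that also holds the miR-322 assay and the starred assays. In the A set its 2 ratios were 0.139 and 1.96 in the authors' deposited table. Other rules for a closer look compare samples or groups of effects and could not be applied to 1 ratio per spot.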

How the results depend on the processing

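No paired analysis was possible because no per-sample column matched a label, so tests that leave out a replicate, block by replicate or drop the detection filter were not run either. Values count as moved past the median SD of repeated control spots (0.15, log2). Y1, U87, snoRNA202 and snoRNA135 together averaged above U6 in both sets, so every ratio is lower with their mean as reference. MiR-15a then stood at 0.895, miR-15b at 1.01, miR-16 at 0.787, miR-195 at 0.718, miR-497 at 0.976 and miR-503 at 0.287. With the median of these controls, chosen after seeing the data, the values were 0.916, 1.04, 0.806, 0.735, 0.999 and 0.294. The other 16 single values moved by less, including miR-322 under every reference run. With these controls the label follows from the assay set and not from the member. Their mean shifts every A set assay by 0.20 and every B set assay by 0.12 (log2). The family median of 0.903 became 0.787 and 0.806 with these references, 0.751 as a mean of log2 ratios, 1.04 with starred strands, and 1.03 both with the miR-424 assay in place of miR-322 and without miR-322 and miR-503 (the last pair chosen after seeing the data). It moved by less in the other 4 settings. The count of members at least 1.5-fold from 1 stayed at 2 in 4 settings and was 1 with the miR-424 assay. MiR-322 and miR-503 kept their side of 1 under every reference run. This was fixed in advance, since each reference shifts a whole set or block alike, by far less than their distance from 1. Signal over background was not analysed here.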
